A study of Mus musculus with 4 samples.

Results

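Neutrophils are the first blood cells to enter injured colon, and 10 genes used to recognise them were followed here: S100a8 and S100a9 (calprotectin), Ltf, Retnlg, Clec4d, Clec4e, Fpr1, Fpr2, Cxcr2 and Csf3r. They are 10 of 22162 genes measured on the arrays. The set was put together with results of these arrays in view, and 4 members (S100a8, S100a9, Ltf and Clec4d) were chosen because they were higher in both X-KO pools than in the matching WT pools. The other 6 joined them as receptors and secreted products of the same cells. X-KO values set against WT values are therefore a description of how the 4 were selected, with no test.

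The study asked what the colon loses or gains in colitis when group X secreted phospholipase A2 is missing. The samples were whole colons of C57BL/6 mice in 4 groups: X-KO (Pla2g10 -/-) mice given dextran sulfate sodium (DSS), WT (wildtype) mice given DSS, naive X-KO mice and naive WT mice. DSS is a sulfated polysaccharide that damages the colon lining. It was given at 1% (w/v) in the drinking water, and those colons were taken at day 7. The mice were taken to be males of 9 weeks, since the age and sex tags of the labels appear to be swapped. Each group was 1 single-colour array, carrying RNA mixed from the colons of 3 mice. No group has a second array, so differences between groups have no replicate check, and whether same-group mice differed among themselves cannot be seen. Because the samples were whole tissue, more cells of a type and more RNA per cell cannot be told apart.

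Calprotectin is the dimer of S100A8 and S100A9, small calcium-binding proteins that make up much of the neutrophil cytosol, withhold zinc and manganese from microbes, and are measured in stool as a marker of bowel inflammation. Lactoferrin, the product of Ltf, binds iron and is stored in the secondary granules of neutrophils, though gland and mucosal epithelia make it too. The receptors serve separate tasks: CXCR2 reads chemokines that draw neutrophils out of the blood, FPR1 and FPR2 read formylated peptides shed by bacteria and damaged mitochondria, CLEC4D and CLEC4E read microbial glycolipids, and CSF3R reads granulocyte colony-stimulating factor. Monocytes and macrophages share several of them, the lectins and formyl peptide receptors in particular.

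Every member was read by 1 probe of 60 bases, with 1 spot per array. The S100a8 and Ltf probes are shown because these genes open and close the range of DSS ratios among the members of the selected group. Both are given 5′ to 3′ as the deposited files list them, with no base marked. The S100a8 probe lies at chr3:90473778-90473837 on the plus strand and the Ltf probe at chr9:110942873-110942932 on the plus strand (mm9). Their place among the exons was not analysed here.

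S100a8: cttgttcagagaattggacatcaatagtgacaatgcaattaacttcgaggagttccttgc

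Ltf: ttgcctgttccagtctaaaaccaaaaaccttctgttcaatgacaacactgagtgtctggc

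Of the 10 probes, 9 shared no run of 20 bases with any other probe of the array. The exception was Csf3r (chr4:125721478-125721537, plus strand, mm9). The 30 bases at the 3′ end of its probe, chr4:125721508-125721537, occur in full in another probe, listed in the files as TC1653005. They are printed here because they decide how the Csf3r values can be read. Capitals mark the shared run, which fills the whole stretch.

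Csf3r: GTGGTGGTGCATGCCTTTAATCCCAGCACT

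A further probe shared 20 bases of this stretch on the same strand, and 1 probe, listed as Nxnl1, held 24 bases of it on the opposite strand. Runs of this kind resemble the B1 family of short repeats, which many mouse transcripts carry. The TC1653005 probe read 33.3 in X-KO DSS, 25.3 in WT DSS, 44.9 in X-KO naive and 37.1 in WT naive colon, in the same order of arrays as Csf3r. These values are relative signals, the unit of all levels given here: the background-subtracted signal as a multiple of the array's 75th percentile, which equals 1. Which transcripts bound the Csf3r probe was not tested, and its values are given apart from the other 9.

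The lectins, the formyl peptide receptors and the calprotectin genes lie in pairs of neighbouring genes. The probes of S100a8 and S100a9 start 22.8 kb apart on chromosome 3, those of Clec4d and Clec4e 8.09 kb apart on chromosome 6, and those of Fpr1 and Fpr2 16.9 kb apart on chromosome 17. Retnlg lies on chromosome 16 and Cxcr2 on chromosome 1.

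The arrays were alike in quality, with 67.7% to 70.4% of spots well above background and 0 saturated spots, and all 4 lay on 1 slide. Probes spotted repeatedly varied by 0.0569 to 0.0631 (median SD, log2) within an array, a measure that holds no variation between animals. For a member well above background, the scanner's own error was at most 20.1% of the signal. Pla2g10, the targeted gene, read 0.993 in X-KO DSS, 19.0 in WT DSS, 1.69 in X-KO naive and 15.8 in WT naive colon. The labels used here do not say whether its probe lies in the deleted part. All 20 absorptive and goblet cell markers were well above background on all 4 arrays, which matches the label colon.

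**Figure D1:**
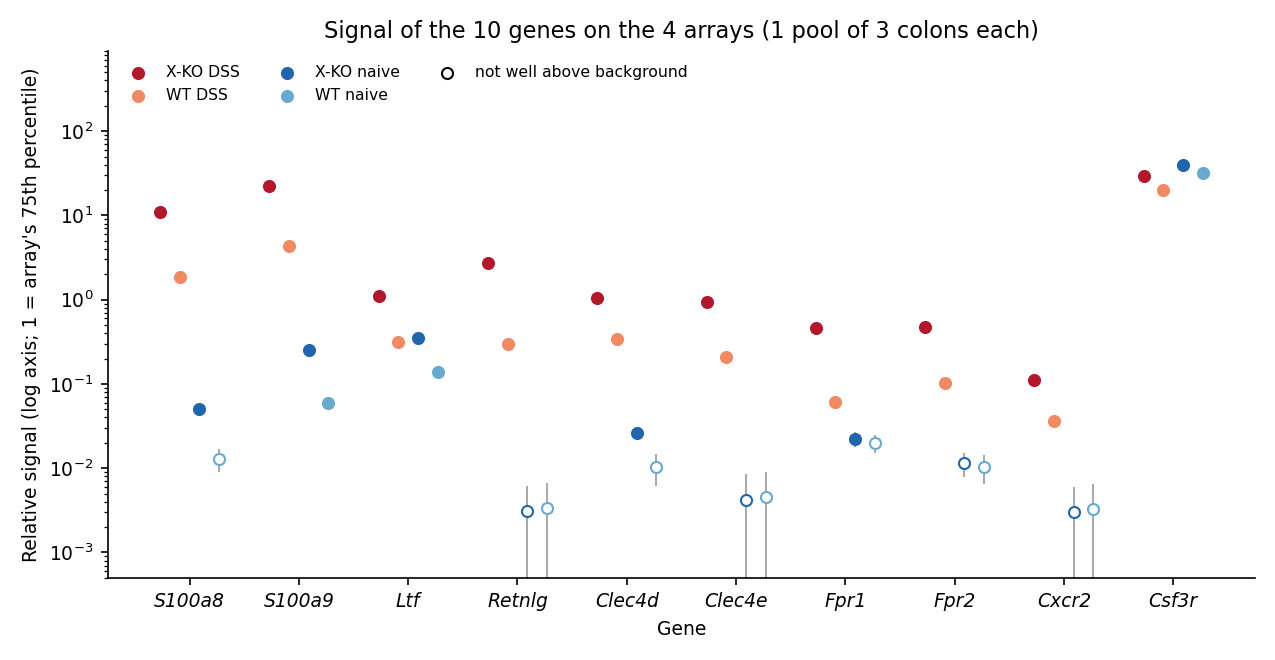
Relative signal (log axis; 1 equals the array's 75th percentile) of the 10 genes in X-KO DSS, WT DSS, X-KO naive and WT naive colon, 1 array of pooled RNA each; bars are the scanner's error, and open points were not well above background. For 9 genes the X-KO DSS point is the highest of the 4, and the Csf3r probe has its highest point in X-KO naive colon at 39.2.

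S100a8 and S100a9 had the same order of arrays. S100a8 read 10.8 in X-KO DSS, 1.86 in WT DSS, 0.0502 in X-KO naive and 0.0128 in WT naive colon, the last not well above background. S100a9 read 22.4 in X-KO DSS, 4.34 in WT DSS, 0.253 in X-KO naive and 0.0596 in WT naive colon, and was well above background on every array. Both DSS pools were far above both naive pools, and within each condition the X-KO pool was the higher.

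DSS over naive, S100a8 stood 216-fold higher in X-KO colon and at least 113-fold higher in WT colon. "At least" marks a fold whose lower array did not measure the gene, whose place was taken by its dim value or, if higher, by the dimmest signal still well above background on that array. For S100a9 the DSS folds were 88.4 in X-KO and 72.8 in WT colon. X-KO over WT, S100a8 was 5.84-fold higher with DSS and at least 3.06-fold higher in naive colon, where normexp background correction with quantile normalization put it under 2-fold (log2 0.94). S100a9 was 5.16-fold higher with DSS and 4.25-fold higher in naive colon. Those genotype ratios are the ones on which both genes were selected. The scanner's error on the S100a9 genotype ratios was 0.20 with DSS and 0.22 in naive colon on the log2 scale, against log2 ratios of 2.37 and 2.09.

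The promoters of the calprotectin genes are shown with that of Clec4e because the letters TATAAA, the core of a TATA box, lie nearest the annotated start in these 3 members. Each stretch runs from 140 bases before to 10 bases from the annotated start, in the gene's own direction, from RefSeq on GRCm38.p6. They lie at chr3:90668931-90669080 on the plus strand (S100a8), chr3:90695712-90695861 on the minus strand (S100a9) and chr6:123289862-123290011 on the minus strand (Clec4e). Capitals mark TATAAA and, in Clec4e, a match to TTGCNNAA on the other strand, letters that C/EBP factors of myeloid cells are known to bind.

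S100a8: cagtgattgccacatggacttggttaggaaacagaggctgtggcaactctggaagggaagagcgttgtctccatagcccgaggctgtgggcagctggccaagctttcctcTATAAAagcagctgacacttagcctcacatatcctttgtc

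S100a9: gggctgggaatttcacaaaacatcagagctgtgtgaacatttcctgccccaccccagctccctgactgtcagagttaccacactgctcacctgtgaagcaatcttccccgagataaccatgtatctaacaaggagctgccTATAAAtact

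Clec4e: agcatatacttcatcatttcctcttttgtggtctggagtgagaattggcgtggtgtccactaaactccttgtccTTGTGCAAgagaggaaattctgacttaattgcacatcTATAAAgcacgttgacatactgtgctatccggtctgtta

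TATAAA begins 30 bases before the annotated start in S100a8 and 29 bases before it in Clec4e, and at the annotated start itself in S100a9. All 10 members had a RefSeq window of 300 bases (250 before to 50 after the start), searched on both strands. TATAAA was found in 5 of the 10 windows, with Fpr1 (at -227 from the start) and Fpr2 (at -130) as the other holders, against 13.6% of 32851 windows. TTGCNNAA was found in 4 windows (S100a9, Ltf, Retnlg and Clec4e), against 10.8% of windows. GGAAGT, a core that PU.1 binds, was found in 4 windows (S100a8, S100a9, Clec4d and Cxcr2), against 23.8%. TGANTCA, the AP-1 letters, was found in 0 of the 10 windows, against 7.81%. These motifs overlap in no member's window. A match describes letters and is not a binding site.

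Ltf moved least with DSS among the members other than Csf3r. It read 1.12 in X-KO DSS, 0.313 in WT DSS, 0.353 in X-KO naive and 0.138 in WT naive colon, and was well above background on every array. The X-KO naive and WT DSS values lay within the scanner's error of each other, and no other member except Csf3r had a naive pool at or above a DSS pool. DSS over naive, Ltf was 3.17-fold higher in X-KO and 2.26-fold higher in WT colon. X-KO over WT, the ratio it was selected on was 3.57-fold with DSS and 2.55-fold in naive colon.

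Retnlg encodes resistin-like gamma, a small secreted protein made by mouse neutrophils and their marrow precursors. It read 2.76 in X-KO DSS and 0.301 in WT DSS colon, and 0.00311 in X-KO naive and 0.00336 in WT naive colon, where neither array had it well above background. DSS over naive, Retnlg was at least 179-fold higher in X-KO and at least 18.4-fold higher in WT colon. Its X-KO over WT ratio with DSS, 9.15-fold, was the highest of the 10, and naive colon gave no ratio.

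Clec4d encodes a C-type lectin receptor (MCL) that pairs with CLEC4E (Mincle), and both signal through the FcR gamma chain encoded by Fcer1g. Clec4d read 1.05 in X-KO DSS, 0.343 in WT DSS, 0.0263 in X-KO naive and 0.0103 in WT naive colon, the last not well above background. Clec4e read 0.940 in X-KO DSS and 0.207 in WT DSS colon, and was not well above background in X-KO naive (0.00422) or WT naive colon (0.00457). The neighbours thus differed in naive colon: the X-KO pool measured Clec4d and did not measure Clec4e.

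Clec4d was 39.8-fold higher with DSS in X-KO and at least 20.9-fold higher in WT colon. Clec4e was at least 61.2-fold higher in X-KO and at least 12.6-fold higher in WT colon. X-KO over WT with DSS, Clec4d was 3.05-fold and Clec4e 4.54-fold higher. In naive colon Clec4d was at least 1.60-fold higher in X-KO, or 2.55-fold with the dim WT value as measured. Clec4d had the smallest ratios of the 4 selected members. Of the other members measured in naive colon, Csf3r was 1.21-fold higher in X-KO. Fpr1 was 1.12-fold higher there with the dim WT value as measured. That log2 ratio of 0.17 lay within the scanner's error of 0.44, so no difference is read from it.

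Fpr1 and Fpr2 encode the formyl peptide receptors. Fpr1 read 0.467 in X-KO DSS, 0.0615 in WT DSS, 0.0225 in X-KO naive and 0.0200 in WT naive colon, the last not well above background. Fpr2 read 0.470 in X-KO DSS and 0.102 in WT DSS colon, and was not well above background in X-KO naive (0.0115) or WT naive colon (0.0104). The X-KO DSS pool stood apart for both genes. DSS over naive, Fpr1 was 20.8-fold higher in X-KO and at least 3.07-fold higher in WT colon, a ratio under 2-fold with normexp and the 75th percentile (log2 0.92). Fpr2 was at least 30.6-fold higher in X-KO and at least 6.20-fold higher in WT colon. With DSS, X-KO over WT ratios were 7.60-fold for Fpr1 and 4.62-fold for Fpr2.

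Cxcr2 read 0.112 in X-KO DSS and 0.0360 in WT DSS colon, and was not well above background in X-KO naive (0.00302) or WT naive colon (0.00327). It was at least 7.28-fold higher with DSS in X-KO and at least 2.19-fold higher in WT colon, where both normexp settings put it under 2-fold (log2 0.85 with quantile normalization and 0.78 with the 75th percentile). With DSS it was 3.11-fold higher in X-KO than in WT colon. The Csf3r probe ran the other way. It read 28.98 in X-KO DSS, 19.9 in WT DSS, 39.2 in X-KO naive and 32.2 in WT naive colon, so both DSS pools were below both naive pools. Its DSS over naive log2 ratio was -0.43 in X-KO and -0.69 in WT colon, and its X-KO over WT ratio was 1.45-fold with DSS and 1.21-fold in naive colon.

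**Figure D2:**
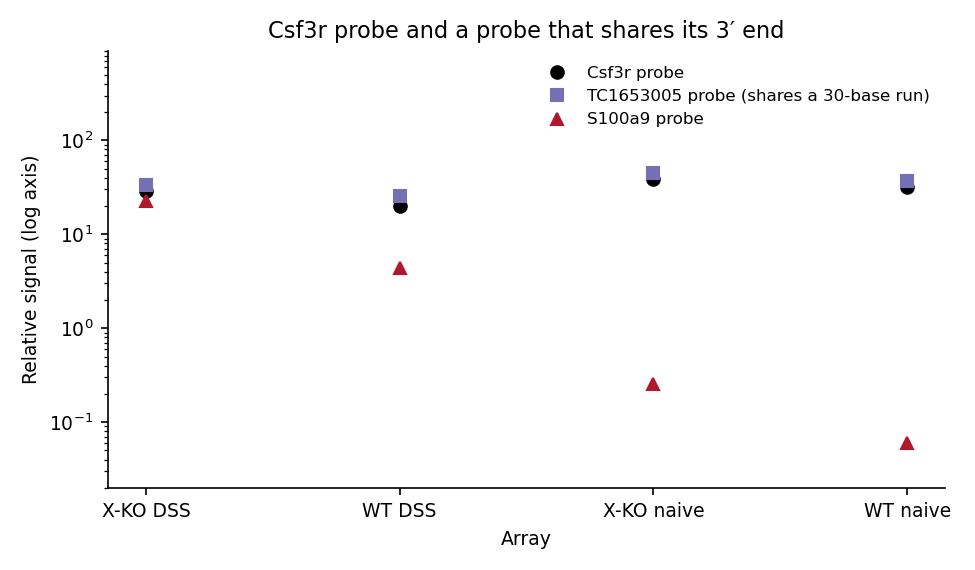
Relative signal (log axis) on the 4 arrays of the Csf3r probe, of the TC1653005 probe that shares 30 bases with it, and of S100a9, 1 array per group. The Csf3r and TC1653005 points have the same order of arrays, highest in X-KO naive colon, while S100a9 is highest in X-KO DSS colon at 22.4.

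At a 2-fold rule, with a gene counted when the higher array measured it well above background, 9 of 10 members were higher with DSS in X-KO colon, against 5.94% of the 21168 genes measured there. In WT colon 9 of 10 were higher with DSS, against 3.54% of 21577 genes, or 8 and 7 with normexp and quantile normalization or the 75th percentile. Without normexp, Csf3r was the exception in both. The median log2 ratio of the 10, bounds included, was 5.12 in X-KO and 3.15 in WT colon, and the medians over all genes were -0.13 and -0.01. The set was put together with these arrays in view. Retnlg, Clec4e, Fpr2 and Cxcr2 passed the filter through the DSS arrays alone, where they were high. The counts and medians therefore describe the members and are no test of a DSS effect. Among members well above background on all 4 arrays, S100a9 and Ltf passed 2-fold in both genotypes and Csf3r did not.

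**Figure D3:**
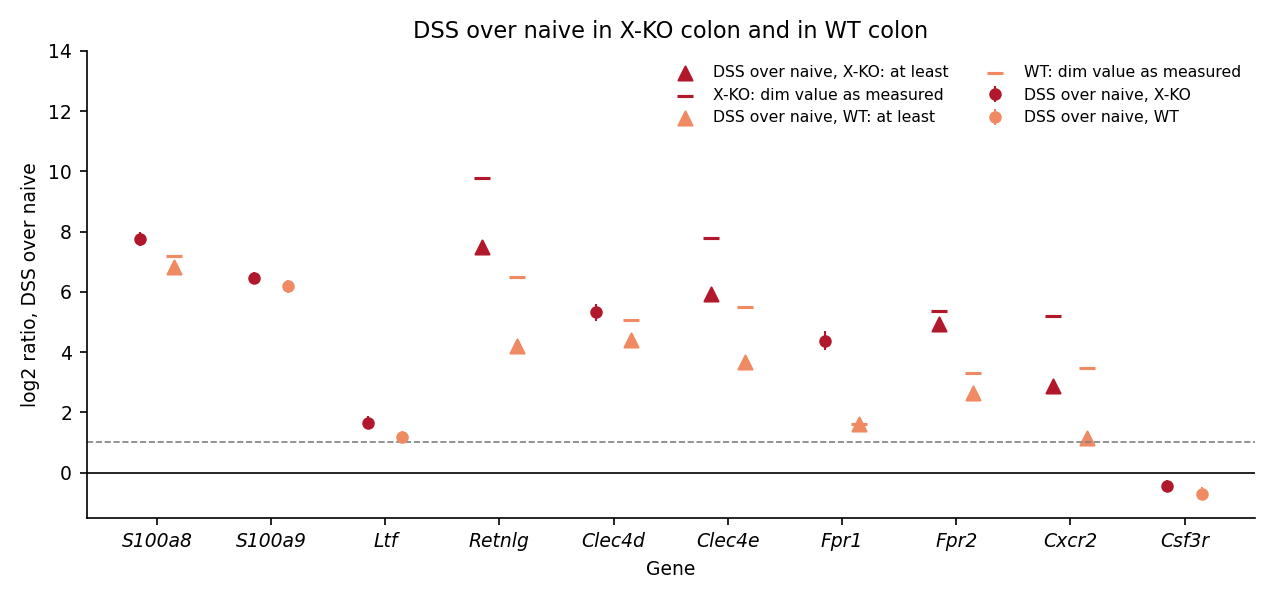
DSS over naive log2 ratio of the 10 genes in X-KO colon and in WT colon; points with bars (scanner error) were measured on both arrays, triangles are lower bounds, dashes show the dim value as measured, and the dashed line marks 2-fold. All genes but Csf3r lie above 2-fold in both genotypes, up to a log2 bound of 7.49 for Retnlg in X-KO colon.

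The mean DSS effect over both genotypes was also tested, with an additive limma fit on all 4 arrays that left 1 residual degree of freedom. It called 0% of 22162 genes higher at a Benjamini-Hochberg adjusted p under 0.05, and 0 members, with 4052 genes at an unadjusted p under 0.05. The smallest adjusted p over all genes was 0.175. The fit used values as measured, dim ones included. Retnlg, Clec4e, Fpr2 and Cxcr2 were not well above background on either naive array, so the sizes and errors given for them rest on dim values. For the 6 members not selected on genotype, limma gave mean DSS effects of 8.14 ± 0.94 (log2, SE; adjusted p = 0.200) for Retnlg and 6.65 ± 0.66 (adjusted p = 0.197) for Clec4e. Cxcr2 had 4.33 ± 0.52 and Fpr2 4.32 ± 0.60 (limma adjusted p = 0.205 each). Fpr1 had 3.00 ± 0.79 (limma adjusted p = 0.239) and Csf3r -0.56 ± 0.18 (limma adjusted p = 0.265). With normexp and the 75th percentile the effects were smaller, at 5.19 for Retnlg, 4.03 for Clec4e, 2.02 for Cxcr2 and 2.70 for Fpr2. The error of this fit is the difference between the genotypes' responses. The 4 selected members were chosen for a like genotype ratio in both conditions, which keeps that difference small, so their p-values are not independent tests and are not used.

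With a variance trend and robust priors, limma called 2.94% of genes higher. It called 7 of 10 members, but 4 of these are the selected ones, whose calls are not independent tests and are not used. Of the other 6, limma with trend called Cxcr2 (adjusted p = 0.0126), Clec4e (0.0246) and Fpr2 (0.0378). None of these was well above background on either naive array, so each passed the filter through the DSS arrays alone. Their calls rest on dim naive values, and nothing is read from them. Retnlg (adjusted p = 0.0845), Csf3r (0.147) and Fpr1 (0.195) were not called by that limma fit.

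The DSS responses of the genotypes were set side by side as a difference of log2 ratios, X-KO minus WT, which has no test. It was 0.58 for S100a8, 0.28 for S100a9, 0.49 for Ltf and 0.26 for Clec4d, close to the middle of all genes (median -0.10, 5th percentile -1.06, 95th percentile 1.14). For S100a8 and Clec4d these use the dim WT naive value as measured, and with normexp and quantile normalization they were 1.68 and 1.03. A small difference follows from how these 4 were selected. It was 0.26 for Csf3r. For Retnlg (3.30), Clec4e (2.30), Fpr2 (2.06) and Cxcr2 (1.75) the difference rests on naive values that no array measured well, so it mostly repeats the X-KO over WT ratio with DSS. For Fpr1 it was 2.76 with the dim WT naive value as measured.

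X-KO over WT with DSS, 9 of 10 members were 2-fold higher in X-KO colon, against 5.2% of 21551 genes, and Csf3r was the exception. In naive colon 6 members were measured, and 3 of them (S100a8, S100a9 and Ltf) were 2-fold higher in X-KO, against 1.19% of 20928 genes, or 2 with normexp and quantile normalization. The genotype contrast chose 4 of the members, so nothing is read from these counts. Both contrasts together held 44 genes that were 2-fold higher in both X-KO pools, 0.217% of the genes measured in both, and 3 members were among them. Without Csf3r the counts were 9 of 9 with DSS and 3 of 5 in naive colon.

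**Figure D4:**
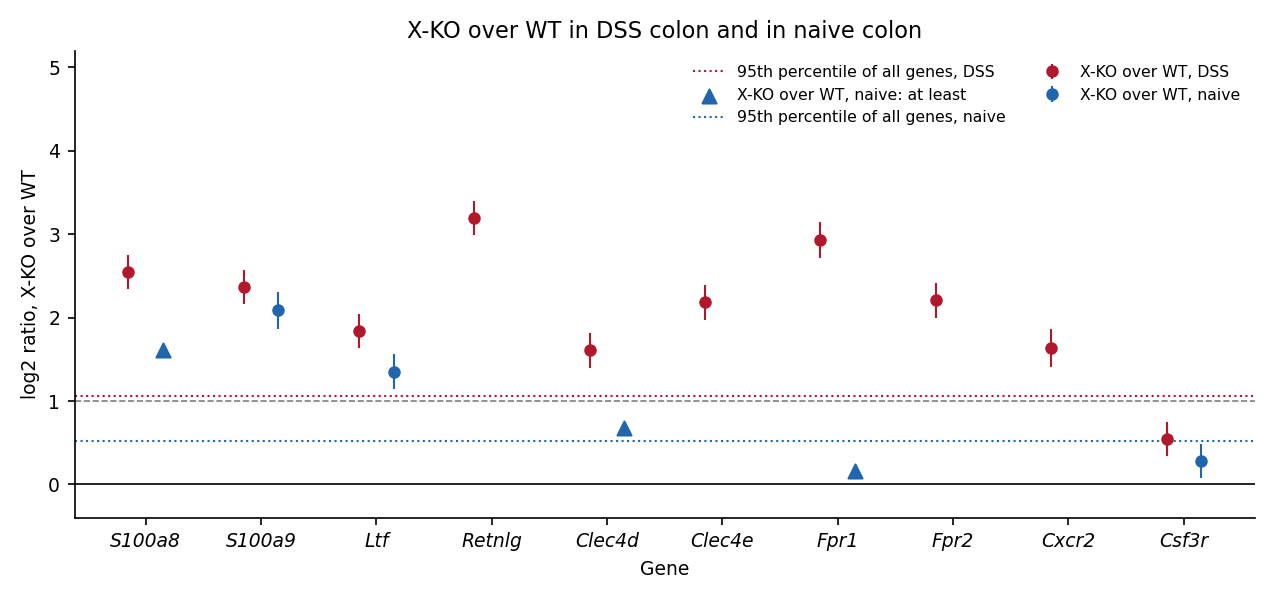
X-KO over WT log2 ratio of the 10 genes with DSS and in naive colon; points with bars (scanner error) were measured on both arrays, triangles are lower bounds, the dashed line marks 2-fold and dotted lines the 95th percentile of all genes in each contrast. With DSS, 9 genes lie above 2-fold; in naive colon 4 genes have no point because neither array measured them.

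Other genes of neutrophils did not all share this order of arrays. Of 42 listed genes 40 were measured; 40 were well above background in X-KO DSS, 36 in WT DSS, 35 in X-KO naive and 31 in WT naive colon, with summed relative signals of 84.5, 58.1, 40.3 and 36.8. DSS over naive, 21 of 40 were 2-fold higher in X-KO (median log2 1.41), against 5.94% of all genes measured. In WT colon 14 of 36 were higher (median 0.79), against 3.54%, and 0 were 2-fold lower in either genotype. X-KO over WT with DSS, 18 of 40 were 2-fold higher (median 0.96), against 5.2% of all genes, and 2 were 2-fold lower. In naive colon 0 of 35 were 2-fold higher (median 0.15), against 1.19%. The limma fit of the mean DSS effect called 0 of them. With trend, limma called 12 higher, against 2.94% of all genes, and 1 lower.

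Granule and secreted products led that list with DSS. Mmp8, the collagenase of neutrophil granules, read 0.183 in X-KO DSS colon, at least 14.7-fold above WT DSS colon, whose array did not have it well above background. Lcn2, which sequesters bacterial siderophores and is also made by epithelium, read 6.03 in X-KO DSS, 1.06 in WT DSS, 0.190 in X-KO naive and 0.260 in WT naive colon. Unlike calprotectin, Lcn2 was thus lower in X-KO than in WT in naive colon. Wfdc21 was 4.70-fold and Stfa2, a stefin, 4.60-fold higher in X-KO with DSS. The stefin genes were split, as a look at the values showed. Stfa2l1 was 3.78-fold higher in the same contrast, while Stfa1 was 2.57-fold and Stfa3 2.07-fold lower, the genes counted above as 2-fold lower. Granule genes were split too, with X-KO over WT ratios with DSS of 0.92 for Camp, 0.80 for Ctsg and 1.20 for Prtn3. Trem3, a receptor of myeloid cells, was at least 3.22-fold higher.

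Some further genes of the lineage, named here after their values were seen, gave mixed values. Ly6g, the surface marker of mouse neutrophils, read 4.84 in X-KO DSS, 5.70 in WT DSS, 2.78 in X-KO naive and 2.59 in WT naive colon, but its probe shares a run of at least 20 bases with 1 probe of another name. Elane, the elastase of primary granules, read 0.639 in X-KO DSS, 0.808 in WT DSS, 0.811 in X-KO naive and 0.864 in WT naive colon. Both were lower in X-KO than in WT with DSS, by less than 2-fold. For Mpo, the peroxidase of primary granules, the brighter probe was well above background in X-KO DSS colon alone, at least 1.52-fold above WT DSS colon. It read 0.0172 there, near the dimmest signal still well above background on that array (0.0141). The other Mpo probe was not well above background on any array. Itgam, the integrin CD11b, had 3 probes. Its brightest shared runs of 20 bases with 72 probes of other genes and read 12.3 in X-KO DSS, 12.8 in WT DSS, 14.02 in X-KO naive and 12.9 in WT naive colon. The other Itgam probes had 0 such runs and disagreed. One read 0.142 in X-KO DSS, 0.0565 in WT DSS, 0.0501 in X-KO naive and 0.0426 in WT naive colon, and the other read 0.0399 in X-KO DSS, 0.0386 in WT DSS, 0.0490 in X-KO naive and 0.0577 in WT naive colon.

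Ligands of these receptors were higher with DSS for the most part. Of 11 measured, 7 were 2-fold higher with DSS in X-KO, against 5.94% of all genes. In WT colon 5 were higher, against 3.54%, and 1 was lower. With DSS, 7 were 2-fold higher in X-KO than in WT colon, against 5.2%. The mean DSS effect in limma called 0 of the 11, and limma with trend called 4 higher, against 2.94% of all genes. Cxcl2, a chemokine that CXCR2 reads, was 0.259 in X-KO DSS and 0.0565 in WT DSS colon, with neither naive pool well above background. Cxcl3 likewise was 0.292 in X-KO DSS and 0.0622 in WT DSS colon. Their X-KO over WT ratios with DSS were 4.58-fold and 4.70-fold. Ppbp, a chemokine of platelets, read 1.497 in X-KO DSS, 0.260 in WT DSS, 0.264 in X-KO naive and 0.183 in WT naive colon.

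Cxcl1 and Cxcl5, named after their values were seen, were 2.79-fold and 2.69-fold higher in X-KO with DSS. Saa3, an acute phase protein and a reported ligand of FPR2, read 22.5 in X-KO DSS, 3.30 in WT DSS, 0.299 in X-KO naive and 0.203 in WT naive colon. Csf3, the ligand of CSF3R, was well above background in X-KO DSS (0.0538) and WT naive colon (0.0324), and not in WT DSS (0.00621) or X-KO naive colon (0.00377).

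Some signalling partners passed 2-fold. Of 11 genes on the list of calprotectin receptors and lectin signalling, 3 of 10 were 2-fold higher with DSS in X-KO colon, against 5.94% of all genes measured. In WT colon 2 of 11 were higher with DSS, against 3.54%. With DSS, 1 of 11 was 2-fold higher in X-KO than in WT colon, against 5.2%. That gene was Fcer1g, at 8.03 in X-KO DSS, 3.59 in WT DSS, 1.46 in X-KO naive and 1.34 in WT naive colon. Tlr4, a receptor reported for calprotectin, read 0.772 in X-KO DSS, 0.578 in WT DSS, 0.389 in X-KO naive and 0.406 in WT naive colon. Cd14 was 1.35-fold higher in X-KO than in WT with DSS. Card9 went the other way, at least 1.68-fold lower in X-KO with DSS. It was well above background in WT DSS colon alone (0.0237). The list's median X-KO over WT log2 ratio with DSS was 0.21. The mean DSS effect in limma called 0 of the list, and limma with trend called 4 higher, against 2.94% of all genes.

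The wider families of the members were split. Of 14 other S100 genes, 0 were 2-fold higher in X-KO than in WT with DSS, against 5.2% of all genes. The list's median log2 ratio was -0.25, and 1 gene was 2-fold lower. That was S100g, a calcium-binding protein of absorptive epithelium, at 1.38 in X-KO DSS, 18.5 in WT DSS, 6.44 in X-KO naive and 10.8 in WT naive colon. Of 21 measured lectins and receptors of the same families, 5 were 2-fold higher, against the same 5.2%, and 1 lower in the same contrast. Clec4a3 was 3.65-fold and Clec4a1 2.80-fold higher in X-KO with DSS, and both are lectin genes of the Clec4 family. Csf2rb2, a subunit of the interleukin 3 receptor, was 2.50-fold higher. Cxcr1 was well above background only in the X-KO pools (0.0199 with DSS and 0.0191 naive). Those values lay near the dimmest signal still well above background on these arrays (0.0141 with DSS and 0.0154 naive). X-KO over WT, Cxcr1 was at least 1.76-fold higher with DSS and at least 1.16-fold in naive colon, bounds under 2-fold. Retnla, a relative of Retnlg made by alternatively activated macrophages and epithelium, was the lower one, at 0.640 in X-KO DSS, 1.58 in WT DSS, 0.570 in X-KO naive and 1.26 in WT naive colon.

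Several lists of markers of other cells were also higher in X-KO colon with DSS. Macrophage and monocyte markers summed to 53.5 in X-KO DSS, 29.9 in WT DSS, 17.9 in X-KO naive and 18.2 in WT naive colon. Of 19, 16 were 2-fold higher with DSS in X-KO, against 5.94% of all genes, and 9 of 18 in WT colon, against 3.54%. With DSS, 10 of 19 were 2-fold higher in X-KO than in WT colon (median 1.06), against 5.2% of all genes. Ccr2, the chemokine receptor of inflammatory monocytes, read 0.5004 in X-KO DSS, 0.174 in WT DSS, 0.0496 in X-KO naive and 0.0474 in WT naive colon.

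Erythrocyte markers summed to 108.6 in X-KO DSS, 35.9 in WT DSS, 14.8 in X-KO naive and 16.8 in WT naive colon, and 7 of 8 were 2-fold higher in X-KO than in WT with DSS (median 1.77). Blood in the vessels or lumen brings its own leukocytes. Squamous epithelium markers summed to 13.1 in X-KO DSS, 14.04 in WT DSS, 11.4 in X-KO naive and 9.26 in WT naive colon. Keratinocytes can make calprotectin, and of 19 squamous markers 2 were 2-fold higher and 6 lower in X-KO with DSS (median -0.54). X-KO over WT with DSS, 6 of 12 B and plasma cell markers (median 1.01), 5 of 13 eosinophil and mast cell markers (0.51) and 3 of 12 T and NK cell markers (0.58) were 2-fold higher. These counts of higher genes, and those of erythrocyte and squamous markers, stand against 5.2% of all genes measured. Smooth muscle markers had a median of -0.62, with 0 of 10 past 2-fold, and absorptive and goblet cell markers one of -0.37, with 2 of 20 lower by 2-fold. The part of these cells in the members' values was not tested.

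In naive colon the median X-KO over WT log2 ratio was -0.04 for macrophage, -0.28 for erythrocyte, 0.24 for squamous and 0.43 for B and plasma cell markers. There 2 of 17 macrophage and 3 of 19 squamous markers were 2-fold higher in X-KO, against 1.19% of all genes measured. For erythrocyte and for B and plasma cell markers the count was 0. Single genes did share the naive genotype order of S100a9. Marco, a scavenger receptor of macrophages, read 1.34 in X-KO DSS, 0.262 in WT DSS, 0.198 in X-KO naive and 0.0495 in WT naive colon. Sprr2d, a cornified envelope protein, read 0.815 in X-KO DSS, 0.140 in WT DSS, 0.270 in X-KO naive and 0.0528 in WT naive colon. Like the calprotectin genes, both were more than 2-fold higher in X-KO in both conditions. So was Fcgr1 of the macrophage list, named after its values were seen, at 2.29-fold with DSS and 2.02-fold in naive colon.

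**Figure D5:**
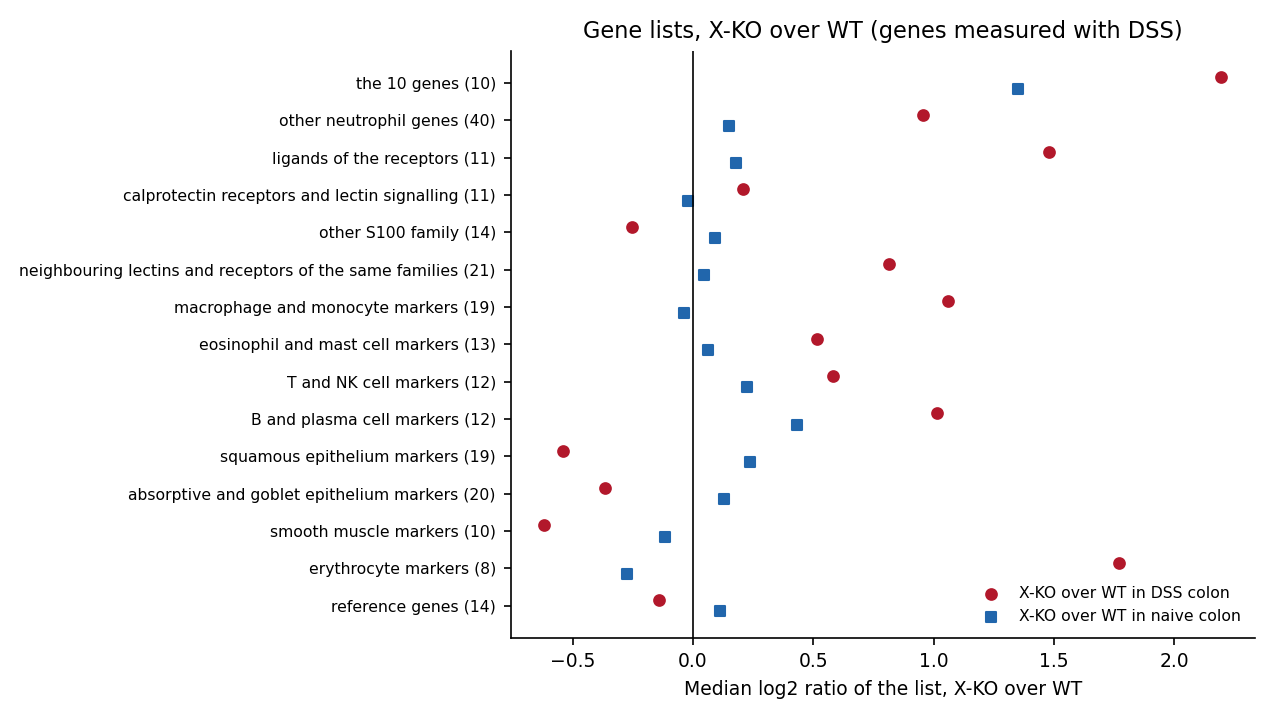
Median X-KO over WT log2 ratio of each gene list, with DSS (circles) and in naive colon (squares); the number in brackets is how many genes of the list were measured with DSS. The 10 genes lie at 2.19 with DSS, the erythrocyte list at 1.77 and the macrophage list at 1.06. In naive colon the 6 measured members have a median of 1.35, and the squares of the other lists lie between -0.28 and 0.43. The genotype contrast chose 4 of the 10 genes, all of them among those measured in naive colon. Nothing is therefore read from the members' place above the other lists.

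The genes most like the calprotectin pair were sought by profile, among 16191 genes outside the set that were well above background on both DSS arrays. Likeness was the root mean square difference between log2 profiles over the 4 arrays, each centred on its mean. Chil3, a chitinase-like protein of myeloid cells, was nearest at 0.66, followed by Il1b (0.74), Mmp10 (0.79), Wfdc12 (0.85) and Mmp3 (0.89). Il1b, a cytokine that drives inflammation, read 3.09 in X-KO DSS, 1.06 in WT DSS, 0.0534 in X-KO naive and 0.0259 in WT naive colon. Chil3 read 3.79 in X-KO DSS, 1.06 in WT DSS, 0.0239 in X-KO naive and 0.0215 in WT naive colon.

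For the mean profile of the receptors Fpr1, Fpr2, Cxcr2 and Csf3r, the nearest genes were Cpxm1 (0.03), Smim41 (0.06), Lox (0.07), Epgn (0.08) and Igsf6 (0.09). That profile includes the Csf3r probe. Without it, a choice made after seeing the data, the nearest were Cxcl2 (0.04), Cxcl3 (0.09), Hbb-bt (0.10), Krt90 (0.15) and Ifitm6 (0.18), so that none of the first 5 genes was named again. Values below the dimmest well-measured signal of an array were set to it. This applies to the naive values of Cxcr2, Fpr2, Cxcl2, Cxcl3, Lox and Krt90, and to the WT naive values of S100a8 and Wfdc12. Their likeness there compares limits and not measured levels, so the order of these genes is loose. With 4 arrays many profiles lie this close, and likeness describes these arrays alone.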

How the data were processed

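Each array was hybridised with Cy3-labelled RNA. The deposited scanner files hold an intensity per spot, background-subtracted and detrended by Agilent Feature Extraction 11.5.1.1, per the submitters' processing notes. The signal column of the deposited series table was that intensity as a multiple of each array's 75th percentile, as the values show. Probe coordinates are mm9, per the file headers.

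Intensities were divided by the 75th percentile of the array's 43020 non-control spots, leaving out 129 to 136 outlier spots per array, and log2-transformed. A gene was its brightest probe among the 28720 of 39429 probes well above background on at least 1 array. Names came from the files and a RefSeq table (GRCm38.p6). An accession named 27508 probes, a symbol 3544 and a synonym 404, while 7973 kept the files' name. The number of arrays limits the precision.

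The DSS effect was fitted with limma 3.58.1 in R 4.3.3, checked on simulated data. The members and lists were chosen with earlier results of these data known. The text names all members and, from the lists, mostly genes with large X-KO over WT log2 ratios with DSS, though not every such gene. Some genes were named after their values were seen. Marco, Sprr2d, Pla2g10 and Lcn2 are named too, and 5 genes by likeness per set. Alternatives changed scaling, background correction, filter, bounds, outlier spots, probe choice, input table, variance model and arrays used.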

Additional observations from a re-analysis of the deposited data

Results flagged for a closer look

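In the genes below, the ratios of the genotypes or of the conditions had opposite signs and at least 1 passed 2-fold. Where the smaller ratio lies near 0, as for Smim41, Hbb-bt and Ifitm6 in naive colon, it is smaller than the scanner's error of 0.20 on a ratio of bright members, and no opposite change is read from it. The error grows for dimmer genes, and was 0.22 for S100a9 in naive colon. Mmp10 was dimmer there than S100a9, so no opposite change is read from its -0.22 either. With 1 array per group the difference between the ratios was not tested. The ratios are log2 values, with bounds where an array did not measure the gene.

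X-KO over WT, Lcn2 was 2.50 with DSS and -0.45 in naive colon, and Stfa2 was 2.20 with DSS and -0.59 in naive colon. Hbb-bt was 2.31 with DSS and -0.09 in naive colon. Among genes close in profile to the members, Smim41 was 1.83 with DSS and -0.03 in naive colon, Mmp10 was 1.86 and -0.22, Mmp3 was 1.57 and -0.32, and Ifitm6 was 1.80 and -0.14 in the same order. Csf3 was 2.25 with DSS and -1.08 in naive colon, and its DSS over naive ratio was 1.81 in X-KO and -1.52 in WT colon.

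DSS over naive, S100g was -2.22 in X-KO and 0.77 in WT colon. The cornification genes Krt1 and Lor had DSS over naive ratios of -1.07 and -1.05 in X-KO colon, and of 2.28 and 1.86 in WT colon. X-KO over WT, Krt1 was -2.68 with DSS and 0.66 in naive colon, and Lor was -2.43 with DSS and 0.48 in naive colon.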

How the results depend on the processing

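No paired analysis was possible because each group holds 1 array. Of 506 values of single members under another setting, 441 kept their direction and stayed within the scanner's error or on the same side of the threshold, 49 moved further, 16 gained a limma call (selected members among them) and 0 reversed. The 441 are no measure of robustness, because some settings could hardly change a member. Averaging probes leaves a member with 1 probe as it was, and keeping outlier spots reached members through the scaling only. Values with 1 array left out were judged by direction alone. With 1 array left out, the DSS effect has no test and spanned 7.18 to 7.75 for S100a8, 6.49 to 9.79 for Retnlg, 1.62 to 4.38 for Fpr1 and -0.69 to -0.43 for Csf3r.

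Background correction by normexp lowered some ratios and raised others. S100a8, X-KO over WT with DSS, was 2.62 with quantile normalization (2.54 otherwise). S100a8, X-KO over WT in naive colon, had a log2 ratio of 0.94 with normexp and quantile normalization, under 2-fold, and 1.00 with normexp and the 75th percentile. Fpr1, DSS over naive in WT colon, was 1.01 and 0.92 in the same order, and Cxcr2 was 0.85 and 0.78, so that 8 and 7 members passed 2-fold there. The difference of DSS responses became 1.68 and 1.56 for S100a8. Genes past 2-fold over all genes, in the same order of settings, were 545 and 636 lower with DSS in X-KO (1107 otherwise) and 492 and 525 lower in WT colon (1138 otherwise). X-KO over WT they were 547 and 585 higher with DSS (1121 otherwise), 267 and 280 lower with DSS (488 otherwise), 137 and 145 higher in naive colon (250 otherwise), and 123 and 107 lower in naive colon (230 otherwise).

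With probes kept only where well above background on all 4 arrays, S100a9, Ltf and Csf3r remained, and 2 members passed 2-fold with DSS in X-KO, 2 in WT colon and 2 in X-KO over WT with DSS, with 0 of them over 2-fold in the difference of responses (5 otherwise). That filter left 498 genes higher with DSS in WT colon (763 otherwise), 732 higher and 248 lower in X-KO over WT with DSS, and 98 higher and 53 lower in naive colon. With dim values as measured, 831 genes were lower in X-KO over WT with DSS, and 385 were higher and 351 lower in naive colon.

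Limma called 0 genes and 0 members for the DSS effect, against 1611 genes and 7 members with trend and robust priors, 1272 and 2 with the filter on all 4 arrays, 142 and 4 with normexp and the 75th percentile, and 35 and 3 with no filter. The 4 selected members are among those called with trend, and S100a8, S100a9 and Clec4d among those called with normexp. Calls of selected members are not independent tests, so no member count here is read as support for a DSS effect. Median scaling shifted every WT DSS over naive ratio by 0.14 and turned 763 higher and 1138 lower genes into 959 higher and 840 lower. Quantile normalization without normexp moved Csf3r, DSS over naive in WT colon, to -0.91.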
